A study of Mus musculus with 22 samples.

Results

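The genes described here are the 33 whose products make, sense, move and clear cholesterol. They were chosen by name and picked by gene identifier from the 53379 genes of the count table, and all 33 were found there. By role they are 7 enzymes of the mevalonate steps, 11 enzymes of squalene and sterol ring synthesis, 5 genes of SREBP control, 2 LXR receptors, 6 genes of uptake, efflux and transport, and 2 of storage and turnover.

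The libraries came from sorted nuclei of the left hippocampus, the side contralateral to an injection made above the right hippocampus of adult male C57/BL6N mice 24 h earlier. The mice were bought at 8 weeks of age and kept for 4 weeks before surgery. The injection held either kainate (70 nl, 20 mM), an agonist of glutamate receptors that sets off status epilepticus, or 0.9% NaCl in the sham mice. Only kainate animals that had convulsive seizures soon afterwards were kept. Each treatment had 8 mice, whose tissue was combined into 3 pools of 4 or 2 mice, so that a replicate is a pool of mice and not a single animal. Nuclei were sorted with an antibody against NeuN, a protein of neuronal nuclei, into a NeuN+ fraction (neurons) and a NeuN– fraction (glia, which can also hold some endothelial cells, pericytes and neurons). The kainate NeuN+, sham NeuN+ and kainate NeuN– groups had 3 libraries each, and the sham NeuN– group had 2, replicates 1 and 3. Surgery was done under medetomidine and ketamine, with atipamezole to end the anaesthesia and buprenorphine afterwards.

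Cells build cholesterol from acetyl-CoA through mevalonate, farnesyl diphosphate, squalene and lanosterol. When sterols run low in the endoplasmic reticulum, Scap escorts SREBP transcription factors to the Golgi, where they are cut and released to switch on the genes of synthesis, and when sterols are plentiful the Insig proteins hold Scap back. Oxysterols work the other way, through the LXR receptors, which switch on the exporters Abca1 and Abcg1. The brain makes its own cholesterol because lipoproteins do not cross the blood-brain barrier, and in adults glia are held to be its main producers.

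SREBP factors bind sterol response elements in promoters, usually beside a CCAAT box bound by NF-Y. RefSeq promoter windows of 300 bases (250 before a start and 50 after it, build GRCm38.p6) were listed for 27 of the 33 members. The letters TCACNCCAC, the core of a classical sterol response element, were looked for on both strands and were found in 1.44% of the 27025 genes with a window and in 1 of the 27 members, Hmgcs1. CCAAT, also on both strands, was in 41.1% of those genes and in 21 of the 27 members. It was found in 5 of 6 genes of the mevalonate steps, in 9 of 9 of the sterol ring steps, in 4 of 5 of SREBP control, in 2 of 2 of storage and turnover, in 1 of 3 of transport and in 0 of 2 LXR receptors, counting genes with a window. A match says only that the letters are there. The sequences below are from those 4 genes called higher after kainate in both fractions (see further on) that have a window, and are written 5′ to 3′ on the gene's strand, with the matches in capitals (ATTGG is CCAAT read from the other strand).
Hmgcs1: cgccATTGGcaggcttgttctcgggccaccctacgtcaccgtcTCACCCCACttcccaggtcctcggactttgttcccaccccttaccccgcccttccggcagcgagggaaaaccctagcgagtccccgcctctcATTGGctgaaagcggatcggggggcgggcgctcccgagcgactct
Idi1: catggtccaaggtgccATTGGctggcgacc
Cyp51: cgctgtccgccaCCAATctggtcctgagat
Msmo1: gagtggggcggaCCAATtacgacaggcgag
The Hmgcs1 stretch is chr13:119690171-119690350 on the plus strand, the last 180 bases before the start. It holds the sterol response element core, which begins 137 bases before the start, between 2 inverted CCAAT boxes that begin at 176 and 45. The other stretches are 30 bases each around the CCAAT box nearest to the start, chr13:8885576-8885605 (plus strand), chr5:4104709-4104738 (minus strand) and chr8:64733616-64733645 (minus strand).

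The libraries held 12058875 to 45428465 counted reads, and every member had at least 39 reads in each library. Replicate 1 stood apart. Of the 33 members, 31 were highest in replicate 1 among the kainate NeuN– libraries and 32 were higher in replicate 1 than in replicate 3 of the sham NeuN– libraries, against 32.9% and 40.7% of all genes tested. Among NeuN+ libraries replicate 1 was the highest of 3 for 21 members after kainate and for 28 in sham mice, against 34.8% and 37.6% of all genes. A pair of NeuN– libraries, kainate replicate 2 and sham replicate 1, had low input: 0.05 ng and 15 cycles of PCR, where the remaining ones had 1 ng and 10 cycles. Of 8 neuronal markers, 7 were called higher in NeuN+ nuclei (all but Tubb3), and 35 of 36 glial and vascular markers were called lower there (all but Tek).

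Levels are given as CPM, read counts scaled to library size by the TMM method. Only after division by exon length (RPKM) can genes be compared with each other. On that scale Cyp46a1, the hydroxylase through which neurons dispose of cholesterol, was by far the highest member in sham NeuN+ nuclei, with a mean of 170.3 RPKM (n = 3), and Stard4, a cytosolic sterol carrier, was the lowest at 0.644. In sham NeuN– nuclei the highest mean was that of Srebf1, at 59.1 RPKM (n = 2), followed by Insig1 at 45.3, and the lowest were Stard4 at 2.28 and Nr1h3 at 2.33. The libraries of Srebf1 and Insig1 overlapped in this order, since replicate 1 was far above replicate 3 for both.

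The first comparison asks whether cholesterol genes changed in neurons of the hippocampus opposite to the injection. In NeuN+ nuclei 7 of the 18 enzymes of cholesterol synthesis rose after kainate when libraries of the same replicate number were compared, as did Insig1, Srebf2 and Stard4, while Abca1 fell. The largest of these differences was that of Msmo1, at 1.31 ± 0.18 on the log2 scale (SE, 3 pairs). The SE is that of the fit, which takes its spread mostly from all genes and not from the 3 pairs alone. The group means of all 11 libraries gave no call (0 of 33 at FDR below 0.25, edgeR's quasi-likelihood test), beside 0.165% of the 40714 genes tested. DESeq2 called 0 members as well, while 4 members had an unadjusted p below 0.05, as did 2.09% of all genes. Samples of the same replicate number deviated together, and their pairing by number was assumed, since the labels do not state it. A model with the replicate number as a block, that is, one that compares kainate with sham within each number, called 10 members higher and 1 lower. Of all genes it called 3.19% higher and 1.9% lower. The median log2 difference of the 33 members was 0.33 without the block and 0.39 with it, where that of all genes was -0.01 and -0.00103. With 16 of the 33 members, kainate was above sham in all 3 pairs, as it was for 15.7% of all genes, and with 3 members it was below sham in all 3 (13.1% of all genes). When the 4 libraries numbered 1 were left out, a choice made after the data were seen, the model without the block called 7 members, 6 higher and Abca1 lower, beside 2.28% of all genes.

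**Figure D1:**
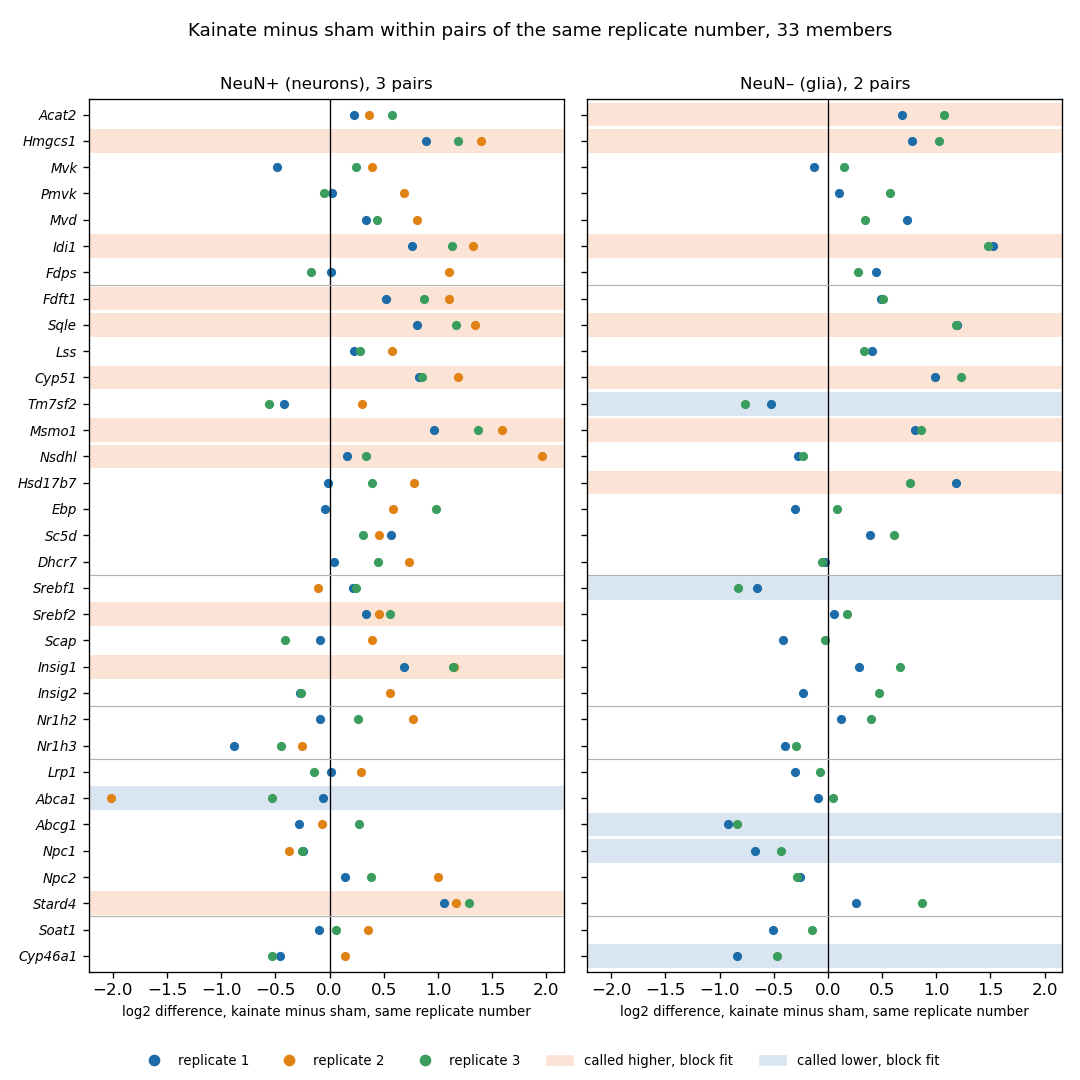
The horizontal axis gives the log2 difference of normalized counts between the kainate and the sham library of the same replicate number (prior count 0.5), with 1 point per pair and 1 line per member, NeuN+ nuclei on the left (3 pairs) and NeuN– nuclei on the right (2 pairs). Grey lines separate the roles, from the mevalonate steps at the top to storage and turnover at the bottom, and shading marks members called with the replicate block. Hmgcs1, Idi1, Sqle, Cyp51 and Msmo1 lie to the right of 0 in all 5 pairs, while Abca1 in NeuN+ nuclei has 1 pair at -2.02.

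Among the mevalonate enzymes 2 of 7 rose in neurons with the block. Hmgcs1, the synthase that makes HMG-CoA, had 93.1, 88.9 and 62.5 CPM in kainate replicates 1 to 3 and 50.1, 33.8 and 27.4 CPM in sham replicates 1 to 3. The groups did not overlap. The log2 fold change was 1.14 ± 0.50 (SE) without the block and 1.16 ± 0.18 with it (FDR 1.00 and 1.25e-05). Idi1, which isomerises isopentenyl diphosphate, had 23.9, 26.03 and 20.7 CPM after kainate and 14.1, 10.4 and 9.40 CPM in sham mice, again without overlap. Its log2 fold change was 1.06 ± 0.41, and 1.08 ± 0.21 with the block (FDR 3.20e-04). Both genes have an exon overlapped by a gene on the other strand (Gm48342 and Gm48574), and reads of the partners cannot be told apart if the counting ignored strand. The other 5 (Acat2, the thiolase at the entry; the kinases Mvk and Pmvk; the decarboxylase Mvd; and Fdps, the farnesyl diphosphate synthase) were not called, with log2 fold changes of 0.06 to 0.53 with the block. For Mvd the kainate libraries (17.2, 20.8 and 19.2 CPM) nevertheless all lay above the sham libraries (13.6, 11.9 and 14.1 CPM).

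Of the 11 enzymes from squalene to cholesterol, 5 rose with the block and none fell. Msmo1, which starts the removal of the methyl groups at carbon 4, showed the largest difference, with 192, 90.4 and 68.6 CPM after kainate and 98.3, 29.9 and 26.6 CPM in sham mice. Replicate 1 was highest in both groups, so that sham replicate 1 exceeded kainate replicates 2 and 3. Within the numbers the log2 differences were 0.96, 1.60 and 1.37, and the log2 fold change was 1.18 ± 0.73 without the block and 1.31 ± 0.18 with it (FDR 1.00 and 7.71e-07). Sqle, the squalene epoxidase that controls entry into the sterol branch, had 132, 96.7 and 71.4 CPM against 75.2, 38.04 and 31.8 CPM, where only sham replicate 1 reached above a kainate library. With the block its log2 fold change was 1.11 ± 0.18 (FDR 2.28e-05). Cyp51, the lanosterol demethylase, had 142, 106 and 62.2 CPM after kainate and 79.9, 46.8 and 34.5 CPM in sham mice, with overlap between groups but not within pairs. With the block the log2 fold change was 0.95 ± 0.18 (FDR 2.91e-04). Fdft1, the squalene synthase, had 53.7, 59.8 and 41.2 CPM against 37.5, 27.9 and 22.5 CPM, with no overlap. It rose by 0.83 ± 0.19 on the log2 scale with the block (FDR 0.00349).

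Nsdhl, a dehydrogenase of the same demethylation steps as Msmo1, was the weakest of the called enzymes. Its kainate levels of 15.1, 14.5 and 11.6 CPM stood against 13.5, 3.70 and 9.15 CPM, and only sham replicate 2 was far lower than the rest. Its log2 differences within the numbers were 0.16, 1.96 and 0.34. The blocked log2 fold change of 0.81 ± 0.28 (FDR 0.136) was 0.25 without sham replicate 2 (FDR 0.939) or without kainate replicate 2 (FDR 0.942). The other 6 (Lss, Tm7sf2, Hsd17b7, Ebp, Sc5d and Dhcr7) ranged from -0.23 to 0.50 with the block. Hsd17b7 had 27.1, 24.6 and 17.5 CPM after kainate and 27.4, 14.3 and 13.3 CPM in sham mice, and among the mevalonate enzymes Acat2 had 31.01, 27.2 and 20.1 against 26.5, 21.1 and 13.5 CPM, both with overlap. Tm7sf2, a sterol reductase, was the 1 enzyme of the 18 with a negative value.

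The sensors of the pathway differed among themselves. Insig1, a retention protein whose gene is itself an SREBP target, had 67.98, 81.9 and 58.1 CPM after kainate and 42.4, 36.95 and 26.3 CPM in sham mice. Every kainate library was above every sham library. The log2 fold change was 0.98 ± 0.45 without the block and 0.99 ± 0.19 with it (FDR 1.00 and 2.14e-04). Srebf2, which encodes the factor that drives the cholesterol enzymes, had 235, 244 and 193 CPM against 186, 178 and 131 CPM and no overlap. Its blocked log2 fold change of 0.45 ± 0.17 lay just inside the threshold (FDR 0.247), and 7 of the 11 fits that left out 1 library did not call it, with FDR from 0.255 to 1.00 and log2 fold changes of 0.40 to 0.51. Srebf1, which encodes the factor of fatty acid synthesis, had 31.01, 33.03 and 35.9 CPM and 26.7, 35.6 and 30.3 CPM in the same libraries, Scap had 264, 209 and 139 and 281, 159 and 185, and Insig2 had 74.03, 45.7 and 27.8 and 89.3, 31.01 and 33.5. For these 3 the groups overlapped and the blocked log2 fold changes were -0.03 to 0.11. The LXR receptors Nr1h2 and Nr1h3 were not called, at 0.32 ± 0.19 and -0.52 ± 0.30.

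Among the transport genes Stard4 rose and Abca1 fell with the block. Stard4 had 5.48, 11.8 and 7.20 CPM after kainate and 2.62, 5.25 and 2.93 CPM in sham mice. The groups did not overlap, and the log2 differences within the numbers were close to each other, 1.06, 1.17 and 1.29. Without the block the log2 fold change was 1.18 ± 0.45, and with it 1.18 ± 0.27 (FDR 1.00 and 0.00433). Abca1, the exporter that loads cholesterol onto lipoproteins, had 30.9, 19.9 and 22.1 CPM after kainate and 32.2, 80.8 and 31.9 CPM in sham mice, all kainate libraries below all sham libraries. Sham replicate 2 was over 2-fold higher than the other sham libraries. Within the numbers the log2 differences of Abca1 were -0.06, -2.02 and -0.53, so the pairs differed widely. The blocked log2 fold change was -0.87 ± 0.22 (FDR 0.013), but -0.30 when sham replicate 2 or kainate replicate 2 was left out (FDR 0.715 and 0.714), and DESeq2 with the block did not call it. Lrp1, Abcg1, Npc1 and Npc2, and the turnover genes Soat1 and Cyp46a1, were not called. Abcg1 had 64.7, 60.4 and 46.6 CPM after kainate and 78.6, 63.4 and 38.7 CPM in sham mice. Npc1 had 71.9, 54.9 and 46.7 CPM against 85.1, 71.1 and 55.8 CPM and was below sham in all 3 pairs, with overlap between the groups. Npc2, which binds cholesterol inside lysosomes, was at 0.51 ± 0.20 with the block (FDR 0.272).

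**Figure D2:**
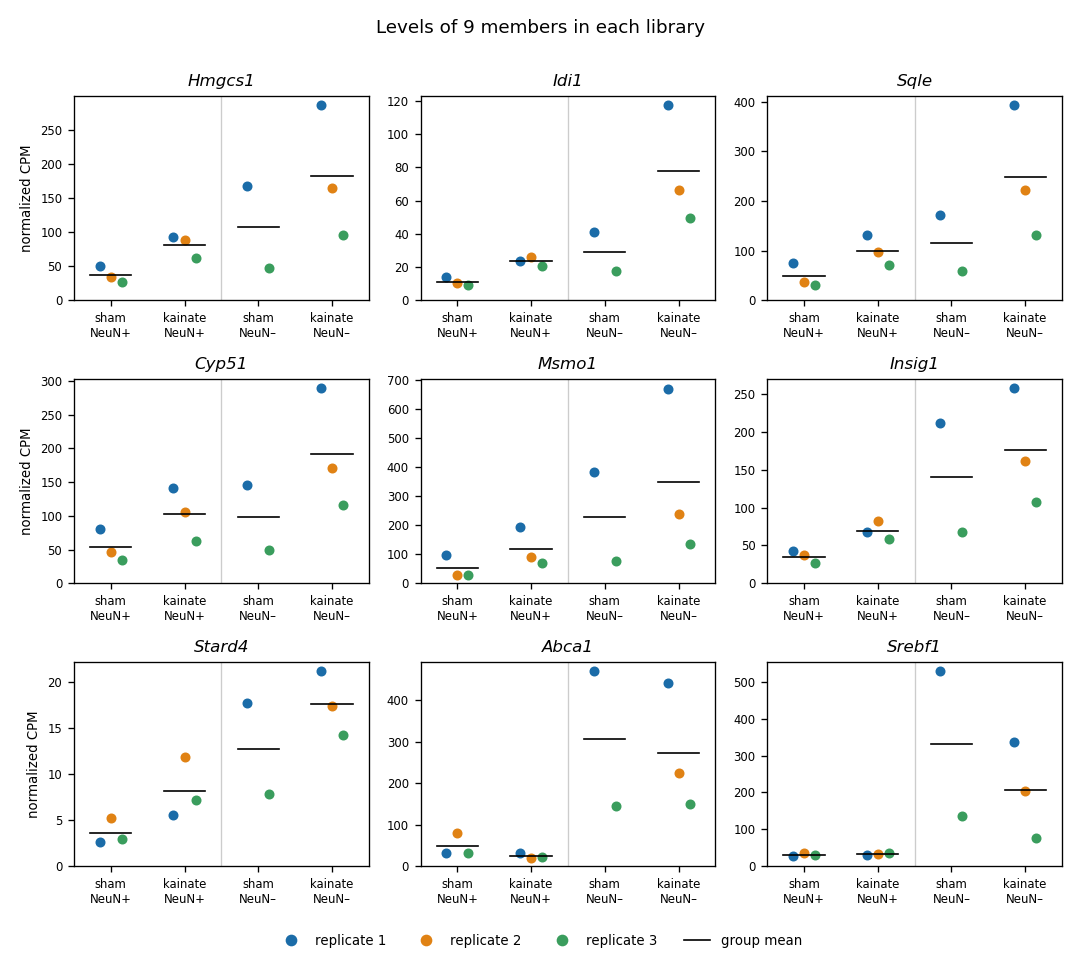
Normalized CPM (vertical axis, from 0, a separate scale for each gene) of 9 members in each library, by treatment and fraction, with 1 point per library coloured by replicate number and a line at the group mean. In NeuN+ nuclei the kainate points of Hmgcs1, Idi1, Insig1 and Stard4 lie above all sham points; in NeuN– nuclei replicate 1 is the highest of each group for all 9 genes.

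The summed level of neuronal markers was 3599 to 7009 CPM in the kainate NeuN+ libraries and 3884 to 7634 CPM in the sham ones, and with the block 2 of 8 were called higher (Gad1 and Gad2). The sum of astrocyte markers did not overlap between the groups. It was 284 to 438 CPM after kainate and 203 to 277 CPM in sham NeuN+ libraries, with none at 0, 4 of 8 called higher and 2 lower with the block. Gfap, which rises in reactive astrocytes, was among the higher ones, at 39.9, 71.4 and 126 CPM against 24.03, 18.1 and 21.3 CPM, and so was the water channel Aqp4 (1.40 ± 0.21, FDR 5.73e-06). In the same fit 1 of 8 oligodendrocyte markers was higher (Cldn11) and 1 lower (Mog), 1 of 6 precursor markers was lower (Gpr17), and of the 8 for microglia Csf1r was higher and P2ry12 lower. Markers of endothelial cells and pericytes gave 0 calls, with Rgs5 and Flt1 the nearest (FDR 0.535 and 0.954). In bulk nuclei a change in the share of a cell type and a change in RNA per cell cannot be told apart, and the part of the astrocyte signal in the values above was not tested. Leaving out both low-input libraries, which are NeuN– libraries, keeps the NeuN+ pairs as they are and is no check on the values above. The blocked log2 fold change of Hmgcs1 in neurons was 1.16 with and without them, and Srebf2 lost its call.

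The second comparison asks the same of NeuN– nuclei. Here a core of synthesis enzymes was again higher after kainate, while Srebf1, the exporter Abcg1 and Npc1 were among the genes that were lower, as called with the replicate block. Without the block 0 of 33 members were called by edgeR and 0 by DESeq2, beside 0.101% of all genes, and 1 member (Idi1) had an unadjusted p below 0.05, where 2.05% of all genes did. With the block 7 were called higher and 5 lower, where the shares of all genes were 2.93% and 2.86%. Kainate was above sham in both pairs for 17 members and below in both for 12, against 34% and 23.4% of all genes. The median log2 difference of the members was 0.10 without the block and 0.12 with it, beside medians of all genes of 0.02 and 0.11. It was 1.06 without the block when both low-input libraries were left out, which leaves 1 sham library, against -0.10 for all genes. These counts rest on 2 pairs, 1 of which holds a low-input library. Without both low-input libraries the block called 4 members (Hmgcs1, Idi1, Sqle and Cyp51), all higher, where 1.3% of all genes were called higher, and without the 4 libraries numbered 1 it called 3 higher, where 0.89% of all genes were. Both fits have 1 pair of NeuN– libraries left. Without the block and the libraries numbered 1, 5 members were called, all higher (Acat2, Hmgcs1, Idi1, Sqle and Cyp51), beside 1.08% of all genes. In each of these fits sham replicate 3 is the only sham NeuN– library and is assumed to vary like the other groups.

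Of the mevalonate enzymes 3 of 7 rose with the block. Idi1 had 117, 66.5 and 49.4 CPM in kainate replicates 1 to 3 and 40.8 and 17.8 CPM in sham replicates 1 and 3. All kainate libraries were above both sham libraries, although sham replicate 1 came close to kainate replicate 3. The log2 fold change was 1.41 ± 0.47 without the block and 1.499 ± 0.25 with it (FDR 1.00 and 4.13e-05), the largest among the members in this comparison. Hmgcs1 had 287, 165 and 96.3 CPM against 168 and 47.2 CPM, which overlap, with pair differences of 0.77 and 1.03 and a blocked log2 fold change of 0.90 ± 0.22 (FDR 0.0113). Acat2, which joins 2 acetyl-CoA molecules, had 78.5, 53.6 and 31.7 CPM against 48.9 and 15.1 CPM. Its blocked log2 fold change of 0.88 ± 0.25 (FDR 0.0386) was not called without kainate replicate 3 (0.69, FDR 0.373), sham replicate 3 (0.68, FDR 0.433) or sham replicate 1 (1.08, FDR 0.274). The remaining 4 were at 0.01 to 0.54, and for Mvd the groups did not overlap (33.5, 27.5 and 21.4 CPM against 20.2 and 16.9 CPM).

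Among the sterol ring enzymes 4 of 11 rose and Tm7sf2 fell. Sqle had 393, 223 and 133 CPM after kainate and 172 and 58.7 CPM in sham mice. Sham replicate 1 exceeded kainate replicate 3, but the pair differences were nearly equal, 1.19 and 1.18. With the block the fold change was 1.18 ± 0.22 on the log2 scale (FDR 3.00e-04), and without the block 1.11 ± 0.59. Cyp51 had 290.0, 171 and 116 CPM against 146 and 49.6 CPM and a blocked log2 fold change of 1.11 ± 0.22 (FDR 8.07e-04). Msmo1 had 669, 238 and 136 CPM against 382 and 75.1 CPM, and sham replicate 1 lay above kainate replicates 2 and 3. With the block its log2 fold change was 0.83 ± 0.22 (FDR 0.0197), and it was not called without sham replicate 1 (0.86, FDR 0.338). Without the block the value of 0.61 ± 0.81 turned to -0.43 without kainate replicate 1 and to -0.14 without sham replicate 3.

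Hsd17b7, the ketoreductase that completes the methyl group removal, had 82.1, 49.3 and 30.9 CPM against 36.2 and 18.3 CPM. Only the lowest kainate library lay between the sham libraries. Its blocked log2 fold change was 0.97 ± 0.26 (FDR 0.0209), and 0.76 without sham replicate 1 (FDR 0.937) or 0.73 without kainate replicate 1 (FDR 0.831). Tm7sf2 had 44.4, 27.5 and 22.1 CPM against 63.9 and 37.5 CPM, and it fell by 0.64 ± 0.24 on the log2 scale with the block (FDR 0.186). Leaving out any 1 of the 4 NeuN– libraries of replicates 1 and 3 ended that call (log2 fold changes of -0.79 to -0.52, FDR 0.422 to 0.732). Part of the exons of Tm7sf2 is shared with Vps51 on the same strand. Fdft1, Lss, Nsdhl, Ebp, Sc5d and Dhcr7 were not called, at -0.25 to 0.50. Among them Fdft1 had 152, 100.2 and 57.4 CPM against 108 and 40.4 CPM, and Nsdhl had 22.5, 10.2 and 6.78 CPM against 27.3 and 7.96 CPM.

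Srebf1 was the 1 gene of SREBP control called in NeuN– nuclei. It had 336, 205 and 76.6 CPM after kainate and 529.7 and 136 CPM in sham mice. Within the numbers kainate was lower in both pairs, with log2 differences of -0.66 and -0.83, though kainate replicates 1 and 2 were above sham replicate 3. The blocked log2 fold change was -0.74 ± 0.22 (FDR 0.0481). It was not called without kainate replicate 3 (-0.65, FDR 0.309), sham replicate 3 (-0.66, FDR 0.346) or sham replicate 1 (-0.83, FDR 0.482), and the value without the block, -0.69 ± 0.58, turned to 0.62 without sham replicate 1. Srebf2 (0.11 ± 0.21) and Insig1 (0.47 ± 0.22), both called higher in NeuN+ nuclei, were not called here (FDR 0.992 and 0.435). In NeuN– nuclei Insig1 had 259, 161 and 108 CPM after kainate and 212 and 68.04 CPM in sham mice, and Srebf2 had 323, 294 and 157 and 312 and 139. Scap, Insig2 and the LXR receptors Nr1h2 (0.26 ± 0.23) and Nr1h3 (-0.34 ± 0.37) were not called either.

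Of the transport genes Abcg1 and Npc1 fell with the block. Abcg1, a cholesterol exporter and LXR target, had 116, 73.9 and 35.5 CPM against 219 and 63.6 CPM, where sham replicate 1 was the highest of all. The blocked log2 fold change was -0.88 ± 0.23 (FDR 0.0155), with no call without sham replicate 1 (-0.84, FDR 0.514). Without the block its value was -0.91 ± 0.55, which turned to 0.27 without sham replicate 1 and was called without sham replicate 3 (-1.55, FDR 0.24). Npc1, the membrane protein that takes cholesterol out of lysosomes, had 297, 156 and 73.8 CPM against 472 and 99.8 CPM. Its blocked log2 fold change of -0.55 ± 0.22 lay at the threshold (FDR 0.243), and 8 of 11 fits that left out 1 library, all but those without KLn replicate 2 or either NeuN+ library numbered 2, did not call it (log2 fold changes of -0.67 to -0.43, FDR 0.287 to 1.00). Without the block the value of -0.70 ± 0.61 turned to 0.84 without sham replicate 1 and to 0.92 without both low-input libraries. Cyp46a1 was low in these nuclei, at 53.6, 59.5 and 49.1 CPM after kainate and 96.1 and 67.9 CPM in sham mice, without overlap. It fell by 0.65 ± 0.22 with the block (FDR 0.127). Without replicate 1 of either group it was still lower (-0.50 and -0.46) but was not called. Abca1, at 442, 223 and 149 CPM and 469.7 and 145 CPM, was not called (-0.02 ± 0.26, FDR 1.00), nor were Lrp1 (-0.19 ± 0.21), Npc2 (-0.27 ± 0.24), Stard4 (0.56 ± 0.32) and Soat1 (-0.33 ± 0.23), which esterifies cholesterol for storage. Stard4 had 21.2, 17.3 and 14.1 CPM after kainate and 17.7 and 7.76 CPM in sham mice.

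Glial markers moved in the same libraries. Oligodendrocyte markers summed to 28973, 12166 and 5084 CPM in kainate NeuN– replicates 1 to 3 and to 42117 and 9165 CPM in sham replicates 1 and 3, and 5 of 8 were called lower with the block, led by Mbp (-1.19 ± 0.22) and Mog (-1.10 ± 0.22). Of the astrocyte markers, 5 of 8 were called lower (Gja1, -1.66 ± 0.24, among them) and Gfap higher (1.77 ± 0.26), and their sums were 662 to 3547 CPM after kainate and 1229 to 4747 CPM in sham mice. All 6 markers of oligodendrocyte precursors (425 to 1987 CPM against 1224 to 3844 CPM) and 2 of 8 of microglia (667 to 1908 against 667 to 3600.2 CPM) were called lower too, with Gpr17 (-2.30 ± 0.24) and Cspg4 (-1.41 ± 0.23) of the former and P2ry12 (-2.10 ± 0.24) and Tmem119 (-0.83 ± 0.25) of the latter. Of the neuronal markers 2 of 8 were called higher (Gad1 and Tubb3), with sums of 794 to 1033 CPM against 626 to 969 CPM. Endothelial and pericyte markers, Pdgfrb and Pecam1 nearest (FDR 0.803 and 0.906), gave 0 calls and were low (42.9 to 63.7 against 49.8 to 72.4 CPM). No marker was at 0 in any library. The part of these shifts in the members' values was not tested. Idi1, Sqle, Cyp51, Msmo1 and Hmgcs1, called higher after kainate, were themselves called higher in NeuN– than in NeuN+ nuclei (see further on).

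**Figure D3:**
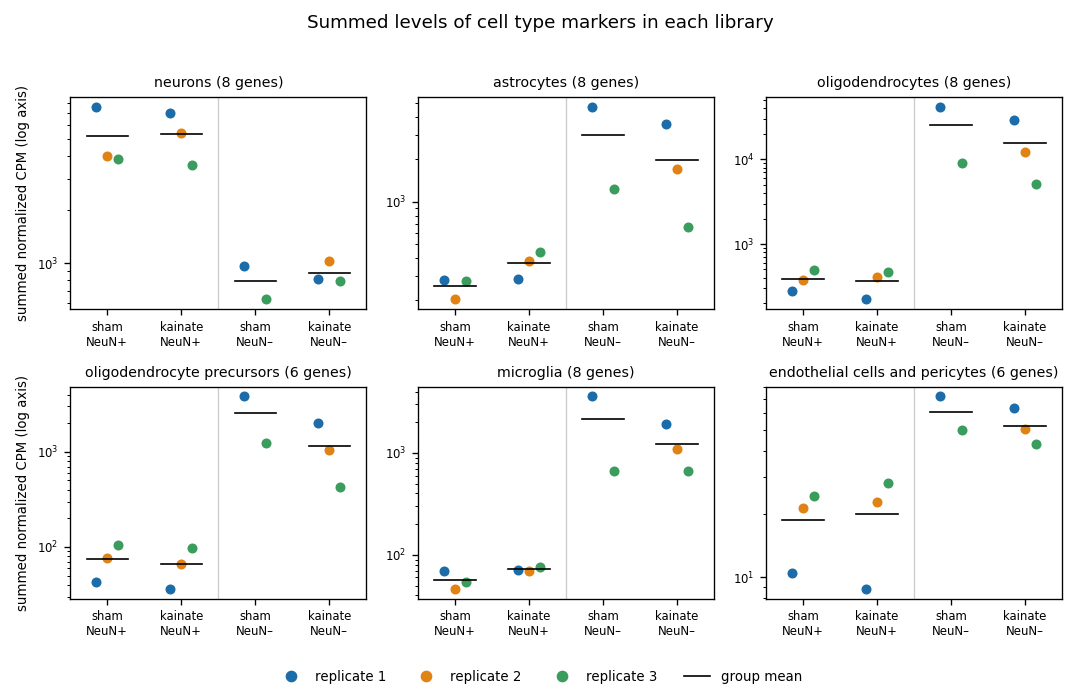
Summed normalized CPM of 6 lists of cell type markers (vertical axis, log scale) in each library, by treatment and fraction, with points coloured by replicate number and a line at the group mean. In NeuN– nuclei the kainate library of a replicate number lies below its sham library for oligodendrocytes and their precursors, and replicate 1 lies highest.

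Of the 10 members called higher with the block in NeuN+ nuclei and the 7 in NeuN– nuclei, 5 were the same genes, 50% of the former and 71.4% of the latter. Of all genes called higher, 1299 and 1194, 415 were shared, 31.9% and 34.8%. The shared members were Hmgcs1, Idi1, Sqle, Cyp51 and Msmo1. In neither fraction did a fit with the block that left out 1 library end the call of Hmgcs1, Idi1, Sqle or Cyp51, and Msmo1 lost it in NeuN– nuclei as given above. Leaving out a library of the other fraction, or kainate NeuN– replicate 2, which has no sham partner, keeps the pairs as they are. Leaving out either library of a pair drops that pair, so 1 NeuN– pair is then left. None of the members called lower, 1 in NeuN+ and 5 in NeuN– nuclei, were shared. Of all genes called lower, 773 and 1163, 202 were shared, 26.1% and 17.4%. The fractions come from the same pools, so the overlap is not one of independent samples. Exons of Fdft1, Cyp51, Srebf1 and Npc1 also overlap another gene (Ctsb, Akap9, Rai1 and others), whose reads cannot be told apart without strand.

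A difference of the kainate effect between the fractions was tested directly, with the NeuN+ and NeuN– libraries of a pool treated as independent. Without the block it was called for 0 of 33 members (DESeq2 also 0, and 0 had an unadjusted p below 0.05, where 0.909% of all genes did), beside 0.00246% of all genes. The median difference of the members was 0.25 without the block, and -0.74 without the block and both low-input libraries (-0.04 for all genes). With the block 1 member was called, beside 1.94% of all genes. This was Srebf1, whose kainate effect was higher in NeuN+ than in NeuN– nuclei by 0.86 ± 0.28 on the log2 scale (FDR 0.219). Within pools, NeuN+ minus NeuN– of Srebf1 was -3.44, -2.63 and -1.09 after kainate and -4.31 and -2.17 in sham mice, which overlap. The pair differences of 0.21, -0.11 and 0.24 in NeuN+ nuclei stood against -0.66 and -0.83 in NeuN– nuclei. In this test 5 of 8 astrocyte, 3 of 6 oligodendrocyte precursor, 2 of 8 microglial and 1 of 8 oligodendrocyte markers were called in the same direction, with list medians of 1.08, 0.82, 0.58 and 0.65 on the log2 scale, and their part in the value of Srebf1, itself higher in NeuN– nuclei, was not tested. With the block the difference was 0.94 without both low-input libraries and no longer called (FDR 0.925), and without the block it turned from 0.80 ± 0.78 to -0.52 without them. The next members were Abcg1 (0.85 ± 0.29, FDR 0.255), Abca1 (-0.85 ± 0.34, FDR 0.475), Npc2 (0.79 ± 0.31, FDR 0.477) and Nsdhl (1.06 ± 0.43, FDR 0.495). For the 5 enzymes called higher in both fractions the differences were -0.42 to 0.47 with the block, none called, with SEs of 0.28 to 0.32.

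The third comparison sets NeuN+ against NeuN– nuclei over both treatments. Of the 33 members 19 were called lower in NeuN+ nuclei and 2 higher, where 20.4% and 16.8% of all genes were called in these directions. The median log2 difference was -0.79, against -0.47 for all genes tested. The members' median was -0.24 once both libraries of low input were dropped, above the -0.65 of all genes. Of the members 12 were then called lower and 4 higher, beside 31.3% and 20% of all genes. With the pool as a block, 22 were called lower and 4 higher, where the shares of all genes were 34.8% and 24.9%.

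**Figure D4:**
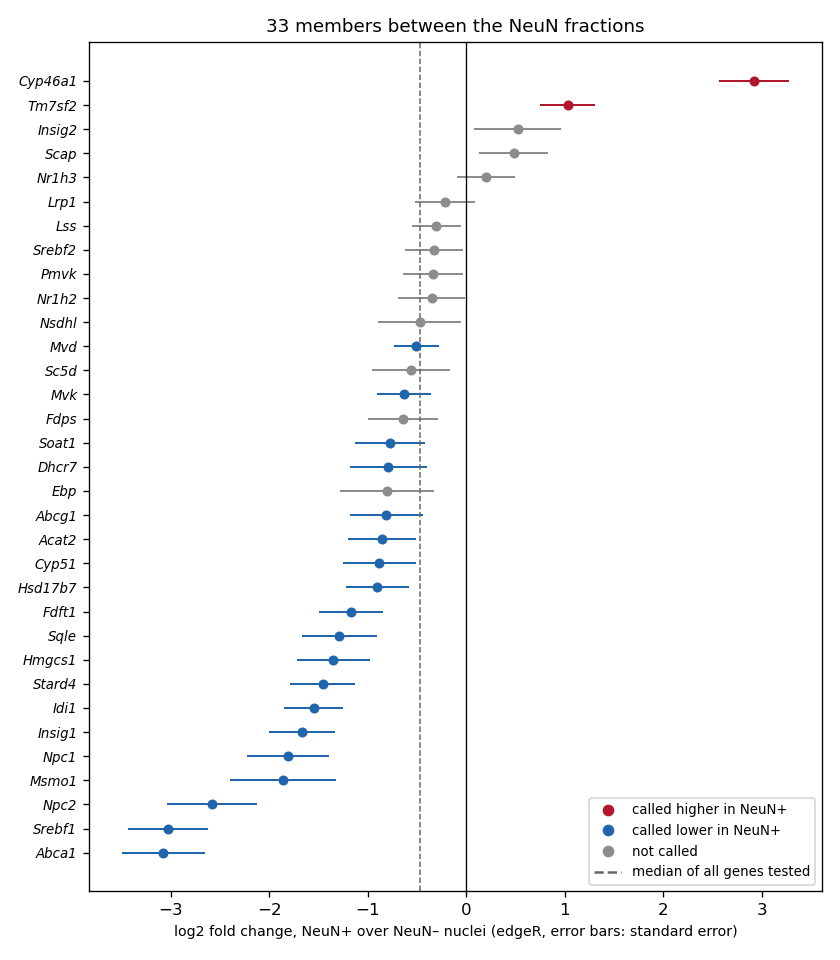
Log2 fold change of NeuN+ over NeuN– nuclei (horizontal axis) for the 33 members in order of size, from edgeR's fit of the 4 group means, with standard errors as bars and the median of all genes tested as a dashed line. Cyp46a1 and Tm7sf2 stand to the right, and Abca1, Srebf1 and Npc2 lie furthest to the left, beyond -2.5.

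The largest difference downward was that of Abca1, whose levels are given above. It was -3.08 ± 0.42 on the log2 scale (FDR 1.29e-04), and the lowest NeuN– library was above the highest NeuN+ library. Srebf1 followed at -3.03 ± 0.41 (FDR 1.28e-04). Npc2 had 20.6, 18.5 and 13.7 CPM in kainate NeuN+, 18.7, 9.21 and 10.5 in sham NeuN+, 146, 47.3 and 32.3 in kainate NeuN– and 174 and 39.4 in sham NeuN– libraries, a difference of -2.58 ± 0.45 (FDR 9.36e-04) without overlap between the fractions. Msmo1 differed by -1.86 ± 0.54 (FDR 0.0278), though 3 NeuN+ libraries (kainate replicates 1 and 2 and sham replicate 1) lay above the lowest NeuN– library. In the other direction Cyp46a1 had 631, 469.6 and 267 CPM in kainate and 869, 426 and 385 CPM in sham NeuN+ libraries, all far above its NeuN– levels. This difference was 2.92 ± 0.35 (FDR 6.04e-05), and Tm7sf2, at 79.1, 86.04 and 60.4 and 106, 70.1 and 89.3 CPM in NeuN+ libraries, was higher there by 1.03 ± 0.28 (FDR 0.0184).

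By role, 5 of 7 mevalonate enzymes, 6 of 11 sterol ring enzymes and 5 of 6 transport genes were called lower in NeuN+ nuclei. In SREBP control Srebf1 and Insig1 (-1.67 ± 0.33, FDR 0.00249) were lower, while Srebf2 (-0.33 ± 0.30), Scap (0.48 ± 0.35) and Insig2 (0.52 ± 0.44) were not called. With the pool as a block, Scap and Insig2 were called higher in NeuN+ nuclei, where 24.9% of all genes were, and Srebf2 was still not called. Scap and Insig2 were higher in NeuN+ nuclei in every pool with both fractions. Per length, the mean level of Srebf2 was 22.9 RPKM in sham NeuN+ and 31.4 in sham NeuN– nuclei, and that of Srebf1 was 5.48 and 59.1. The LXR receptors were not called.

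The neighbouring pathways were counted from 3 further lists. Without the block none of their genes was called for kainate in either fraction. The counts with the block that follow stand beside 3.19% of all genes called higher and 1.9% lower in NeuN+ nuclei, and 2.93% and 2.86% in NeuN– nuclei. Of 11 genes of fatty acid synthesis, which Srebf1 drives, 1 was called higher with the block in NeuN+ nuclei (Acly, which makes cytosolic acetyl-CoA, 0.58 ± 0.19, FDR 0.103, followed by Acss2, not called, at -0.49 ± 0.19), and 3 were called lower in NeuN– nuclei. The smallest p among these were those of the desaturases Fads2 (-1.45 ± 0.24, FDR 3.56e-05) and Scd2 (-0.72 ± 0.21, FDR 0.0464). Fads2 had 81.4, 50.7 and 19.7 CPM after kainate and 182 and 66.2 CPM in sham NeuN– libraries. Of 9 genes of the isoprenoid branch, which uses farnesyl diphosphate for other products, 0 were called in either fraction with the block. Nus1 (0.35 ± 0.20) and Pggt1b (0.41 ± 0.25) came nearest in NeuN+ and Pdss1 (0.61 ± 0.25, FDR 0.276) and Nus1 (0.34 ± 0.25) in NeuN– nuclei.

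Of 19 other genes of sterol transport and oxysterols, 2 were called higher and 1 lower with the block in NeuN+ nuclei. Cyp7b1, a hydroxylase that breaks down oxysterols, fell by 1.59 ± 0.26 on the log2 scale (FDR 1.51e-05), from 53.1, 17.2 and 27.8 CPM in sham libraries to 16.001, 10.8 and 5.22 CPM after kainate. Lrp8, a lipoprotein receptor of neurons, rose by 0.76 ± 0.18 (FDR 0.00511), with 257, 266 and 263 CPM against 169.7, 143 and 153 CPM. In NeuN– nuclei 1 rose and 5 fell. Ch25h, which makes an oxysterol that holds back SREBP processing, rose by 2.28 ± 0.49 (FDR 0.00198) from low levels, 1.02 and 2.08 CPM in sham and 6.14, 7.83 and 8.49 CPM in kainate libraries. Cyp27a1, another sterol hydroxylase, fell by 1.30 ± 0.25 (FDR 3.89e-04).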

How the data were processed

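Nuclear RNA of 11 libraries from NeuN+ and NeuN– nuclei was measured by mRNA sequencing (SMART-Seq v4). The authors trimmed reads with Trim Galore 0.4.3, aligned them to mm10 with Rsubread and deposited raw counts of uniquely mapping reads per gene (featureCounts, GENCODE release 16 for mouse). The 11 bisulfite samples are not analysed here. One label places the tissue in the right hippocampus, whereas titles and methods say left. Which library ran on which sequencer is not given in the sources used here.

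Groups came from the labels. Genes with a symbol (105 without one were left out) were filtered by edgeR's filterByExpr (minimum count 10, minimum total 15), which kept 40714, all 33 members among them. Counts were scaled by TMM, and a quasi-likelihood model of edgeR (glmQLFit in its legacy mode) with 1 mean per group took in all 11 libraries, with Benjamini-Hochberg adjustment over all genes and calls at FDR below 0.25. Its degrees of freedom were 7 (residual) and 6.76 (prior), at a common coefficient of biological variation of 0.6. A standard error is the log2 fold change divided by the root of F. With the replicate block, at 3 residual and 48 prior degrees of freedom, it reflects mostly a spread shared over genes. It is not a measure of how well a gene's own pairs match.

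Replicate numbers of the labels are shared by kainate and sham. The labels do not say that a number marks a shared batch. Deviations from the group means of same-numbered libraries correlated in all 5 pairs (over genes, r = 0.563, 0.163 and 0.432 in NeuN+ and 0.704 and 0.749 in NeuN– nuclei). Differently numbered libraries were not compared. The sham NeuN– group has 2 libraries, whose deviations mirror each other, so its r values are not independent. The numbers were taken to pair the samples, which remains an assumption. A model with the number as a block within each fraction (biological coefficient of variation 0.251, 3 residual and 48 prior degrees of freedom) stands beside the first. Leaving out a library of the other fraction acts on such a fit only through the filter, the scaling and the shared spread. In the comparison of NeuN+ with NeuN– nuclei the block is the pool. In the test of the difference of the kainate effect it is the number within each fraction. Libraries are pools of separate mice.

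Exon lengths, coordinates and overlaps are of GENCODE release M21 on the same build. Exons of 11 members overlap another gene, and a library's strandedness was not stated. All fits ran in R 4.3.3 with edgeR 4.0.16 (and limma 3.58.1), and DESeq2 1.42.0 served as an alternative. A run on simulated data, with known changes put in alike in both fractions, checked the code and not the pairing of the samples. Members, lists, named genes and alternatives were chosen with earlier results of these data known. Every member called in a kainate comparison, the 3 with the smallest p there and the 5 with the largest difference between fractions are given in every library (19), the other 14 by range and count. Genes of other lists are named where called without the block or, if none is, the 2 with the smallest p with it.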

Additional observations from a re-analysis of the deposited data

Results flagged for a closer look

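Srebf1 was the 1 member whose kainate effect was called different between the fractions. With the replicate block the effect was higher in NeuN+ than in NeuN– nuclei by 0.86 ± 0.28 (SE) on the log2 scale (edgeR, FDR 0.219). The fit treated the NeuN+ and NeuN– libraries of a pool as independent. The 1 call among 33 members stands beside 1.94% of all genes called in this test. It was higher in NeuN+ nuclei in 2 of 3 pairs and lower in NeuN– nuclei in 2 of 2. Glial markers moved with it: 5 of 8 astrocyte, 3 of 6 oligodendrocyte precursor, 2 of 8 microglial and 1 of 8 oligodendrocyte markers were called in the same direction, with list medians of 1.08, 0.82, 0.58 and 0.65, and their part in this difference was not tested. Without the block the difference was 0.80 ± 0.78 and was not called, and it turned to -0.52 without both low-input libraries and to -0.074 without the 4 libraries numbered 1. With the block it was also called with DESeq2 size factors, DESeq2's test and a filter on CPM, and without replicate 2 of 3 groups (kainate NeuN+, sham NeuN+ and kainate NeuN–). It was not called in the other 8 fits that left out 1 library (0.73 to 0.94, FDR 0.377 to 0.905), without both low-input libraries (FDR 0.925) or without the 4 libraries numbered 1 (FDR 1.00). No group had more than 3 libraries, so single libraries that stand apart were not tested for.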

How the results depend on the processing

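The replicate block moved the members called for kainate from 0 to 11 in NeuN+ and to 12 in NeuN– nuclei, and to 1 for the difference between fractions. Without the 4 libraries numbered 1 (chosen after seeing the data) the unblocked counts were 7 and 5, the latter with 1 sham library assumed to vary like the other groups, and a separate fit per fraction gave 3 in NeuN+ nuclei. At FDR below 0.05, 13 members differed between fractions, 2 higher and 11 lower in NeuN+ nuclei. Of the 40714 genes tested, 3964 were higher and 3019 lower at that threshold. Where no share of all genes is given here, a count shows only how the setting moved it. Leaving out 1 library gave 0 to 1 unblocked calls in NeuN– nuclei. With the block it gave 4 to 16 there and 0 to 3 for the difference between fractions. Blocked calls in NeuN– nuclei were 4 without both low-input libraries and 3 without those numbered 1. For the difference between fractions the block gave 0 in both cases and at FDR below 0.05, 2 with DESeq2 size factors and 4 with DESeq2's test. Other settings left these counts within 1.5 times. The cause was not tested.

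Without the block, some directions turned. Without both low-input libraries the NeuN– log2 fold changes were 0.63 for Srebf1, 0.27 for Abcg1 and 0.92 for Npc1, and the differences between fractions were -0.25 for Nsdhl, -0.52 for Srebf1, -0.35 for Abcg1 and -0.74 for Npc2. Without the libraries numbered 1, Srebf1 was at 0.061 and Npc1 at 0.22 in NeuN– nuclei, and the difference of Srebf1 was -0.074. Leaving out 1 library gave NeuN– values of -0.43 to 2.24 for Msmo1, -1.37 to 0.62 for Srebf1, -1.55 to 0.27 for Abcg1 and -1.45 to 0.84 for Npc1. The differences between fractions ran from -0.10 to 1.80 for Nsdhl, -0.52 to 1.48 for Srebf1, -0.34 to 1.48 for Abcg1 and -0.49 to 1.99 for Npc2. Every member had at least 39 reads in each library, and groups of 2 or 3 pools set the precision.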

Other observations

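Fatty acid synthesis genes were called lower in NeuN+ than in NeuN– nuclei in 7 of 11 cases and higher in none, with a median log2 difference of -1.05, where 20.4% of all genes were called lower and 16.8% higher and the median of all genes was -0.47. Scd1 and Scd2, the desaturases that make oleate, stood at -3.84 ± 0.47 (SE) and -3.44 ± 0.49 (FDR 6.57e-05 and 1.77e-04). For the isoprenoid branch 4 of 9 were called higher in NeuN+ nuclei and none lower, beside the same shares of all genes, with Pdss1, which makes the side chain of ubiquinone, at 1.04 ± 0.28 (FDR 0.0181). With the pool as a block, 5 of them were called higher and 1 lower, where 24.9% and 34.8% of all genes were.

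The other genes of sterol transport and oxysterols went both ways, 5 called higher and 7 lower in NeuN+ nuclei of 19, again beside 16.8% and 20.4% of all genes. Cyp27a1 had 0.71, 1.15 and 2.29 CPM in kainate NeuN+ and 71.8, 52.3 and 28.6 CPM in kainate NeuN– libraries, and its log2 difference was -5.52 ± 0.50 (FDR 3.30e-05). The sterol exporter Abcg4 was higher in NeuN+ nuclei by 2.21 ± 0.27 (FDR 6.00e-05), and Lrp8 by 1.31 ± 0.24 (FDR 0.00118). Of the sterol hydroxylases, Cyp46a1 and Cyp27a1 thus lay on opposite sides of the sort, while Cyp7b1 was not called (0.15 ± 0.47, FDR 0.833). These genes were named after their values were seen.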
